A study of Oryza sativa with 60 samples.

Results

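Panicle and straw of rice (Oryza sativa, cultivar Nipponbare), both harvested at heading, were compared for gene expression and for pseudouridine (Ψ) in poly(A)-selected RNA. These 2 tissues make up 10 of the 60 samples of the series, with 2 untreated input libraries and 3 bisulfite-treated libraries for each. The comparison took every gene that could be tested, 29987 of the 38978 listed, and every Ψ site with a value in both tissues, 8736 of the 9126 listed. Neither group carried a mutation or a treatment of the plant, and how many plants went into a sample is not given in the sources used here. The other tissues of the series, namely plumule, radicle, seedling, flag leaf, embryo and endosperm, serve below only to show where a gene or site of these 2 tissues was also found.

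The panicle is the flowering branch of rice and at heading carries spikelets whose stamens hold pollen close to release. Straw is the stem part of the plant, a tissue of support, transport and storage. Neither tissue was checked against marker genes, since the files do not pair nuclear identifiers with names. Ψ is a uridine whose base has been turned so that it joins the sugar through carbon, a change made by Ψ synthases after transcription. In bisulfite-induced deletion sequencing (BID-seq), bisulfite forms an adduct with Ψ at which reverse transcriptase skips a base, and the share of gapped reads, corrected by a calibration curve, gives the Ψ fraction, the share of transcripts that carry the modification. In tRNA, Ψ stands in the T loop within the run GGUΨCGA or one close to it.

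The file gives each site with 7 bases of sequence around it, written in DNA letters. The contexts on which the Ψ comparison turns are shown 5′ to 3′ with the modified uridine as a capital T. The first pair was repeated over many chromosomes and held the largest differences among sites that passed the authors' filter in both tissues. The next pair matches or resembles the T loop run of tRNA, here called the T loop kind, and had some of the highest fractions in both tissues. The last 3 are each shown for 1 named site in a nuclear gene with a large difference. For the others of these 3, sites beyond the named one are not described here. The context cgtTgcc was not confined to its named site. It had 4 sites with both values, all higher in panicle, by 1.61 to 38.4 points, and 1 of them passed in both tissues.
First repeated context: gagTatc
Second repeated context: ctgTaat
T loop kind, first: ggtTcga
T loop kind, second: gatTcga
Site in Os11g0687100: cgtTgcc
Site in Os01g0720400: tgcTcct
Site in Os02g0771600: cctTccc

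Expression is given in TPM, a level normalized for gene length and depth so that every library has the same sum. The steps between low TPM values put the 4 libraries at like depth, between 6112050 and 7229983 read equivalents, an estimate, since 53.1% to 62.5% of values came out whole within 0.02 reads. Genes at 1 TPM or more numbered 25167 and 25171 in panicle against 23885 and 23788 in straw. Across genes, which are not independent replicates, the libraries of a tissue correlated at 0.993 in panicle and 0.994 in straw (Pearson's r on log2 values). They differed by slightly more than counting noise, with a chi-square per gene of 1.09 and 1.15 over genes with whole values, so each tissue counts as 2 libraries. Radicle in the light, used only for the shared estimate of spread, stood apart with 9.33, and without it 10946 genes were called higher and 6508 lower in the test below. The labels do not say that the libraries came from separate plants, and the p-values therefore measure only the spread between these libraries, which may be technical.

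To ask how far the reproductive organ and the stem differ in their transcripts, expression was compared with limma on log2(TPM + 1). In all 14909 genes, 49.7% of those tested, differed. At an adjusted p-value under 0.05, 9301 genes were higher in panicle, 31.0% of all genes tested, and 5608 were lower, 18.7%. In bulk tissue, fewer cells of a type and less RNA per cell cannot be told apart. Changes of at least 4-fold were found for 1494 genes higher in panicle and 1057 lower, and changes of at least 16-fold for 412 and 143. Which direction was in the majority turned with scaling. Higher genes made up 62.4% of the calls on TPM as deposited, 49.4% after quantile normalization and 47.2% with median of ratios scaling. Across all genes the log2 change had a median of 0.17 on TPM as deposited and of 0 under both other scalings, and the changes of most single genes described below are therefore also given relative to 0.17.

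**Figure D1:**
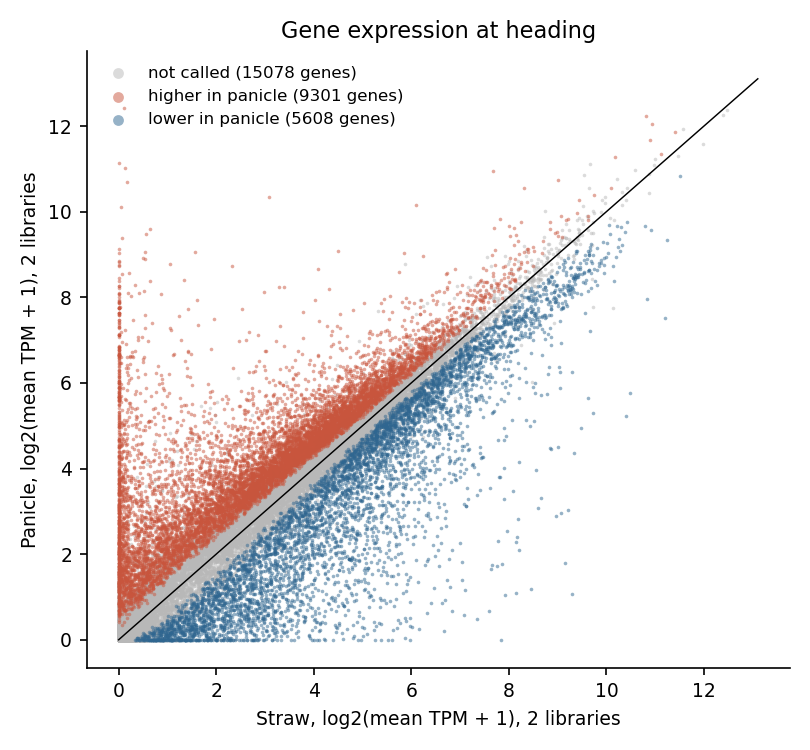
Mean expression of each tested gene in straw (x axis) and panicle (y axis), both as log2(mean TPM + 1) over 2 libraries, with genes coloured by the limma call and the line of equality in black. Genes at or near 0 in straw reach up to 5456 TPM in panicle (Os05g0399700), and among the largest falls straw reaches 630 TPM at 1.10 TPM in panicle (Os12g0515800).

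The largest rise was that of Os05g0399700 (chromosome 5, 19445901 to 19447487, IRGSP-1.0, plus strand). Its level was 5310 and 5603 TPM in the panicle libraries and 0 and 0.169 TPM in the straw libraries. It was the most abundant of the genes with a large rise, and panicle alone of the 12 groups held it at a high level, with 23.5 TPM in flag leaf at heading as the next group mean. On the log2(TPM + 1) scale it was higher by 12.30 ± 1.02 (SE, adjusted p = 6.36e-08 in limma), and by 12.13 after taking off the median of all genes. Os01g0929600 (chromosome 1, 40797941 to 40798525, minus strand) followed with 2220 and 2256 TPM in panicle, and it was listed at 0 in both straw libraries (limma adjusted p = 1.25e-09). The files pair neither these identifiers nor those below with gene names or functions, so no role is given for them.

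Flag leaf at heading, collected at the same stage, showed traces of both genes in 1 of its 2 libraries. Os05g0399700 stood there at 0.168 TPM in replicate 1 and 46.8 TPM in replicate 2, and Os01g0929600 at 0 and 8.13 TPM. Of the panicle genes counted below, 39 reached 1 TPM in replicate 1 of flag leaf and 73 in replicate 2, whereas 14 reached 10 TPM in replicate 1 and 9 in replicate 2. The part of other tissue in these values was not tested.

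The 10 genes with the largest rise had panicle means between 522 and 5456 TPM and straw means between 0 and 0.563 TPM. For 9 of them panicle was the highest of the 12 groups, and the exception was highest in endosperm at 10 days after anthesis. Log2 changes ran from 8.93 to 12.30, with limma adjusted p-values of at most 1.71e-04.

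Os12g0515800 (chromosome 12, 20042293 to 20043043, plus strand) had the largest fall. It stood at 0.397 and 1.80 TPM in panicle and at 662 and 599 TPM in straw, which is -8.32 ± 0.41 (SE) on the log2 scale and -8.49 after taking off the median (adjusted p = 1.27e-10 in limma). Straw was not its main place, since flag leaf held 919 TPM at heading and 1114 TPM at 10 days after anthesis. Os06g0278000 (chromosome 6, 9564356 to 9566944, minus strand) was listed at 0 in both panicle libraries and stood at 229 and 225 TPM in straw (limma adjusted p = 4.75e-13). This gene was highest in straw among the 12 groups, and seedling at 8 days came next with 19.6 TPM. Of the 10 genes with the largest fall, 4 were highest in straw, 5 in flag leaf and 1 in seedling.

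Genes present in 1 tissue and nearly absent from the other were counted as a description, with at least 10 TPM in both libraries of 1 tissue and under 1 TPM in both of the other. Panicle had 474 such genes and straw 119. The panicle set summed to 47165 TPM in panicle, as a mean over its libraries, and 95 of its genes reached 100 TPM. The straw set summed to 3873 TPM in straw, and 6 of its genes reached 100 TPM. Of the panicle set, 259 genes stayed under 1 TPM in the means of all 10 other groups, and 422 were highest in panicle. Of the straw set, only 3 stayed under 1 TPM in all 10 other groups, 34 were highest in straw, and 63 reached 10 TPM in flag leaf at heading. The panicle set was at low levels in most of the other tissues. The straw set was often found in leaf and seedling as well. Both sets were chosen by their levels in panicle and straw, so the counts highest there are partly fixed by that choice. Shares over all tested genes are not given beside these counts, so the counts do not show that either set is unusual.

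**Figure D2:**
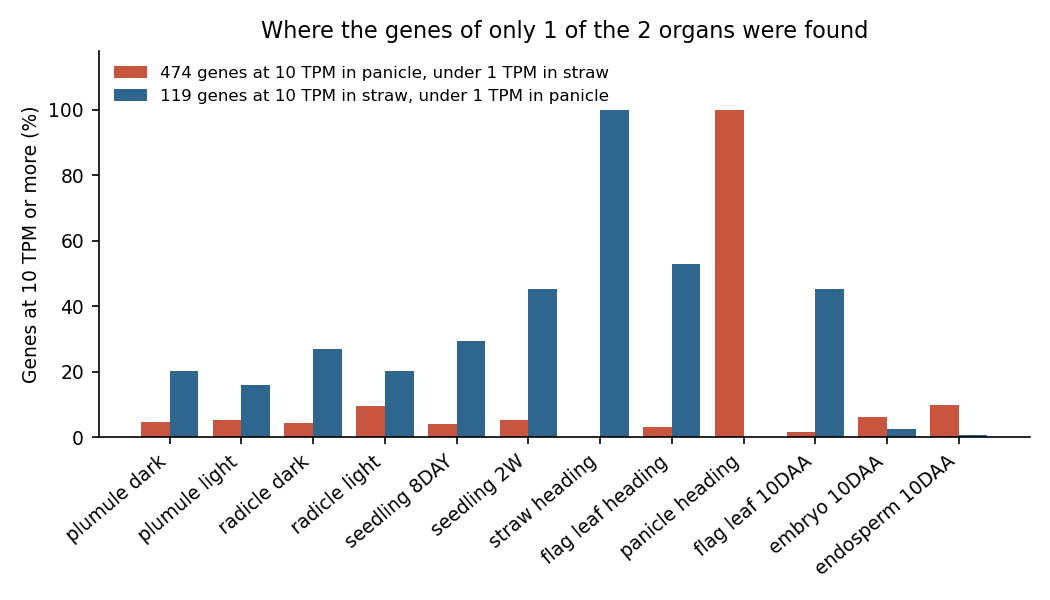
Share of genes (%) at 10 TPM or more in the mean of each of the 12 groups, for the 474 genes found in panicle and not straw (red) and the 119 found in straw and not panicle (blue). The 100% bars follow from the choice of the genes. Elsewhere the panicle genes reach at most 9.92%, in endosperm, whereas the straw genes reach 52.9% in heading flag leaf and 45.4% both in the later flag leaf sample and in seedling at 2 weeks.

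Runs of neighbouring genes shared these patterns. On chromosome 9, 19 genes in a row on the minus strand (14256524 to 14344926) were listed at 0 in both straw libraries, while in panicle they lay between 54.3 and 114 TPM in replicate 1 and between 52.4 and 114 TPM in replicate 2. The highest mean of any of them in another group was 0.391 TPM. Their listed lengths ran from 663 to 797 bases and 4 of them had the same values in all 4 libraries. Near-identical copies can share reads, so the level of each single gene is uncertain. Another 10 genes on chromosome 11 (4634063 to 4725123) were also at 0 in straw, with 5.97 to 50.0 TPM in panicle replicate 1 and 6.83 to 45.8 TPM in replicate 2. In the other direction, 5 genes of 1261 bases on chromosome 2 (21250083 to 21287447) stood at 2.49 to 2.89 TPM in the panicle libraries and at 24.1 to 28.5 TPM in straw, and 4 of these had identical values. These runs were chosen after their values were seen.

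Genes of the plastid and mitochondrial genomes carry symbols in the table, and their grouping by symbol was likewise chosen after their values were seen. Transcripts of both organelles mostly lack the stable poly(A) tail by which the RNA was selected, so their levels here are those of the small part that was captured. Of 35 mitochondrial genes tested, 13 were higher in panicle and 0 lower in limma, and the median log2 change was 0.62 against 0.17 for all genes. It was 0.24 after quantile normalization and 0.43 with median of ratios scaling, against 0 for all genes. The share higher, 37.1%, was near the 31.0% of all genes. The count of lower calls remained 0 after quantile normalization, where 7 were higher (20.0%), and with median of ratios scaling, where 11 were (31.4%). Over all 29987 genes tested, 18.7% were lower on TPM as deposited. After quantile normalization 6793 of all genes were higher and 6954 lower, and with median of ratios scaling 6396 and 7168. Many mitochondrial genes stood near or under 1 TPM in straw, which leaves little room for a fall on the log2(TPM + 1) scale. Of 57 plastid genes tested, 19 were higher and 7 lower, shares of 33.3% and 12.3%, with a median of 0.22 that became -0.03 after quantile normalization and -0.01 with median of ratios scaling. Summed over the 59 plastid genes with a symbol, the level went the other way. It was 1598 and 1706 TPM in the panicle libraries and 2280 and 1902 TPM in the straw libraries. The widest gap among the gene groups was that of the 4 genes for the cytochrome b6f complex. They summed to 181 and 210 TPM in panicle and 572 and 433 TPM in straw, yet 0 of them were called lower and 1 higher in limma. The plastid ATP synthase and RNA polymerase groups summed higher in panicle, so the total does not stand for plastid genes in general.

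The largest mitochondrial change was that of ccmFn, which encodes a protein of cytochrome c maturation. Its level was 15.3 and 15.1 TPM in panicle and 2.05 and 2.35 TPM in straw (log2 change 2.34 ± 0.21, SE, and 2.17 relative to the median, limma adjusted p = 1.26e-07). The cox3 transcript, for subunit 3 of cytochrome c oxidase, stood at 16.3 and 17.5 TPM against 4.26 and 2.70 TPM (log2 change 2.02, relative 1.85, limma adjusted p = 2.69e-08). The ribosomal protein gene rps1 was the most abundant of the 53 mitochondrial genes with a symbol, at 187 and 203 TPM in panicle and 89.1 and 75.2 TPM in straw (log2 change 1.24, relative 1.07, limma adjusted p = 3.12e-08). In all of these genes the panicle libraries lay above the straw libraries without overlap. With 2 libraries a tissue this is common, since 78.9% of all genes tested had no overlap in 1 direction or the other. Among the 8 tested genes for complex I of the respiratory chain (nad), 4 were higher, or 50.0% against 31.0% of all genes, all of them under 5 TPM in every library. After quantile normalization nad2, nad4 and nad7 lost the call, at limma adjusted p-values of 0.176, 0.0538 and 0.0760, and nad2 lost it with median of ratios scaling as well, at 0.0702. Under both scalings nad9 kept it.

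In the plastid, psbB for the core antenna protein CP47 of photosystem II rose most, with 24.2 and 25.3 TPM in panicle against 4.65 and 4.18 TPM in straw (log2 change 2.25 ± 0.19, SE, relative 2.08, limma adjusted p = 6.86e-08). Of the 12 photosystem II genes it alone was higher. In contrast, psbD for the D2 protein fell, with 17.7 and 18.8 TPM against 34.6 and 34.2 TPM (log2 change -0.88, relative -1.05, limma adjusted p = 0.00495), and the other 10 were not called. The call of psbD was lost with a pseudocount of 0.1, at an adjusted p of 0.136 in limma. The polymerase subunit gene rpoA was higher in panicle (19.1 and 19.7 TPM against 5.24 and 4.49 TPM, log2 change 1.80, relative 1.63, limma adjusted p = 1.94e-07). The ribosomal protein gene rps2 was lower (9.92 and 11.8 TPM against 32.3 and 29.4 TPM, log2 change -1.43, relative -1.60, limma adjusted p = 7.67e-07). Of the 24 plastid ribosomal protein genes, 8 were higher and 5 lower, shares of 33.3% and 20.8% that lie near those of all genes, and this count includes duplicated genes such as rps15 and rps15-2 or rpl23 and rpl23-2, whose copies can share reads. The gene rpl16 among the lower ones has a listed length of 9 bases, a length at which a TPM value is hard to interpret.

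The Ψ fractions of panicle and straw had the same centre. Over the 8736 sites with both values the median fraction was 10.1% in panicle and 9.83% in straw, and the median difference was 0. The authors pooled the 3 treated libraries of a tissue into 1 value per site, so a difference at a site has no replicate error and no test, and the depth behind each fraction is unknown. The authors' p-value-based filter had passed 684 of these sites in both tissues, 869 in panicle only, 1022 in straw only and 6161 in neither. In panicle 1124 sites were higher by 10 percentage points or more, 12.9%, and in straw 1063, 12.2%.

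Large differences rested mostly on a value of 0 in the other tissue. Of 103 sites higher in panicle by 50 points or more, 98 were at 0 in straw, and of 94 sites higher in straw, 86 were at 0 in panicle. None of these passed in both tissues. A site on chromosome 6 (2678282, minus strand, where 2 genes overlap) was at 99.9% in panicle and 0% in straw, and a site in Os04g0446100 on chromosome 4 (22241414, minus strand) at 0% in panicle and 88.0% in straw, whose host had mean levels of 2.11 TPM in panicle and 1.53 TPM in straw. The fraction of this second site was also 0 in the 10 other tissues. Sites passed in both tissues behaved otherwise, as 599 of 684 differed by less than 10 points. Among them 51 were higher in panicle by 10 points or more, 7.46%, and 34 in straw, 4.97%. Across these 684 sites the fractions correlated with Pearson's r of 0.952 and Spearman's rho of 0.955, a description over sites that share libraries and, in part, genes.

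Within genes the levels were also close. Of 501 nuclear genes with a site passed in both tissues, 66 had more than 1, and in 63 of these every such site differed by less than 10 points. Such closeness was general, since 551 of all 602 sites passed in both tissues in these 501 genes differed by less than 10 points (91.5%). Os02g0161900 on chromosome 2 had 8 of them, with differences from -1.42 to 9.10 points, and its level was 1411 TPM in panicle and 1280 TPM in straw. In Os02g0626100, 7 sites differed by -2.67 to 2.48 points, although its level was 4220 TPM in panicle and 1953 TPM in straw.

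The largest differences among sites passed in both tissues came from the repeated contexts. Of the 14 sites higher in panicle by 20 points or more, 10 lay in gagTatc or ctgTaat, and only 4 were left without these contexts, as many as the 4 sites higher in straw. The highest of all was a ctgTaat site on chromosome 5 (12889516, minus strand, in no gene) with 83.1% in panicle and 42.3% in straw. A gagTatc site on chromosome 8 (9265577, plus strand, in no gene) followed with 86.2% against 48.0%. Here and below, in no gene means that no listed gene spans the site on its strand. Genes on the other strand were not looked up.

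These contexts were chosen after their values were seen, and all their sites were then listed. Of 32 gagTatc sites with both values, 17 lay outside nuclear genes, 15 of them on nuclear chromosomes with no gene on their strand and 2 on the plastid genome. In these 17 the fraction ran from 27.9% to 86.2% in panicle and from 0% to 65.6% in straw, and panicle was higher in 17 of 17 with a median difference of 26.5 points. The 15 sites within nuclear genes had the same 7 bases but low fractions, between 0% and 21.9% in panicle and between 0% and 16.7% in straw, with a median difference of 3.06 points. In the second context, the 11 sites had no gene on their strand or, in 1 case, lay in the plastid ribosomal protein gene rpl14. Panicle was higher in 10 of 11 with a median difference of 12.1 points.

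**Figure D3:**
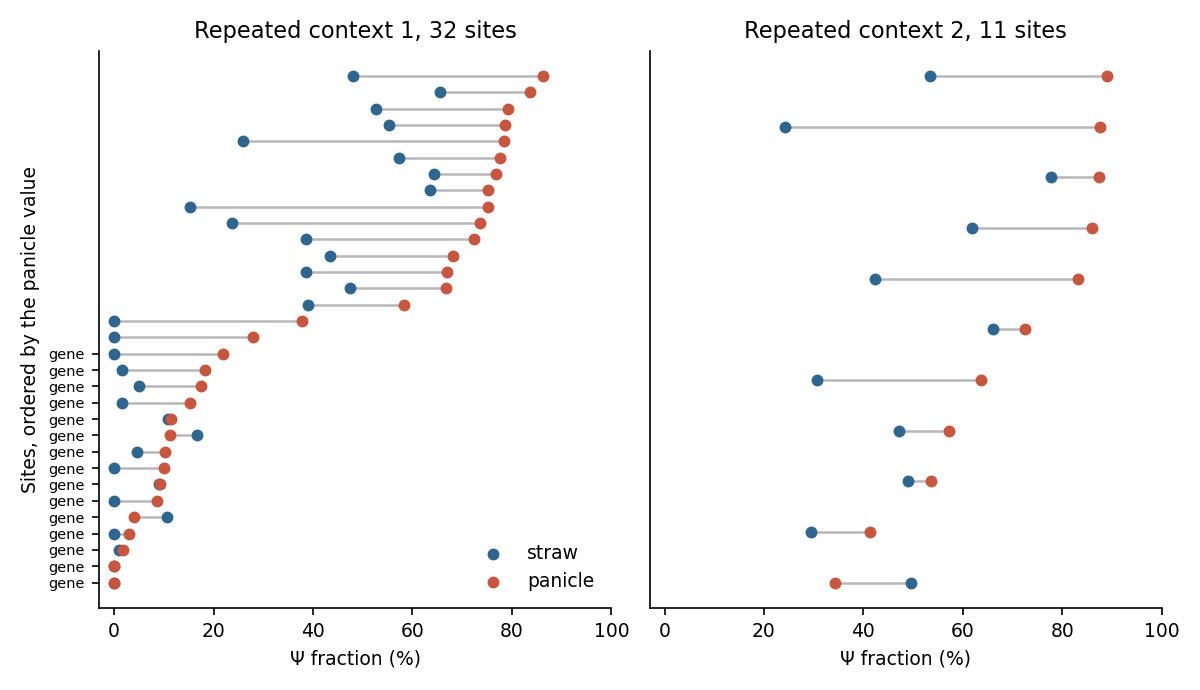
Ψ fraction (%) in straw (blue) and panicle (red) at each site of the first repeated context (left, 32 sites) and the second (right, 11 sites), ordered by the panicle value and marked "gene" where a nuclear gene spans the site on its strand. Sites outside nuclear genes lie at 27.9% or more in panicle and to the right of straw in all 17 rows on the left and in 10 of 11 rows on the right. Sites in nuclear genes stay at or under 21.9%.

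Both contexts travelled together. In 9 places a gagTatc site and a ctgTaat site lay on the same strand near each other, and in 8 of these the distance was 322 or 323 bases. The plastid genome held 1 such pair (77814 and 77492, minus strand, the latter in rpl14), and chromosomes 1, 3, 5, 6, 7, 8 and 10 held the others. On chromosome 3 the pair (24751123 and 24750800, minus strand) had 72.4% and 89.1% in panicle against 38.6% and 53.4% in straw. In the plastid pair the values were 68.2% and 72.5% against 43.3% and 66.1%. The first site of the pair was higher in panicle in 9 of 9 places and the second in 8 of 9. Copies of 1 stretch can share reads, so these sites are not independent of each other, and the sequence beyond 7 bases was not analysed here.

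Panicle was not the peak of the first context. Over the 12 gagTatc sites passed in both tissues, the median was 76.0% in panicle, 50.3% in straw and 40.4% in flag leaf at heading. It was 83.9% in seedling at 2 weeks and 83.1% in plumule in the dark. Straw and flag leaf were thus the low tissues of this context at heading, and panicle lay near the seedling values.

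**Figure D4:**
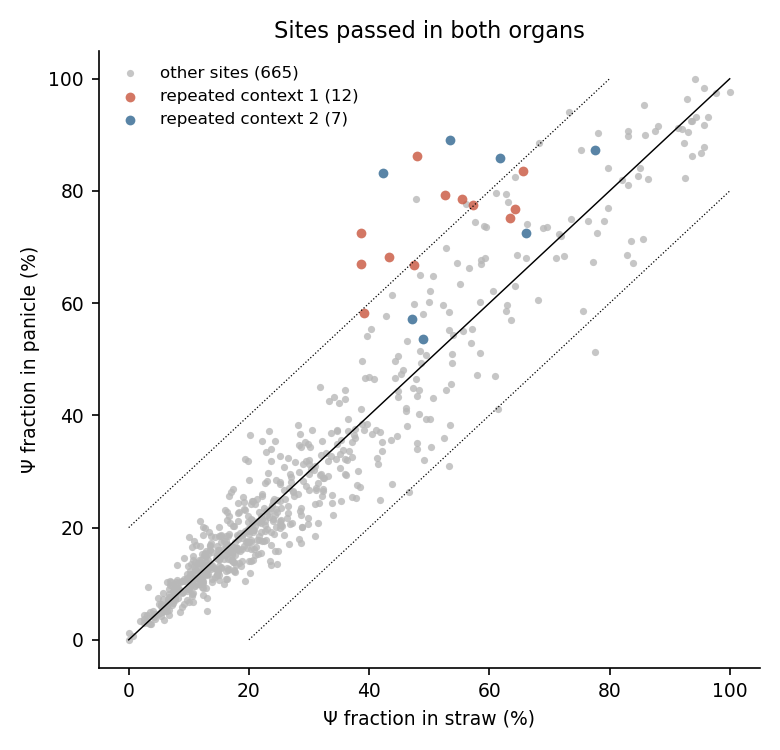
Ψ fraction (%) in straw (x axis) and panicle (y axis) at the 684 sites passed in both tissues, with the line of equality and dotted lines at 20 points on either side. The 12 sites of the first and the 7 of the second repeated context (red and blue) all lie above the line, and 10 of them are among the 14 sites past the upper dotted line.

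By the 3 bases centred on the site, GUA differed most among motifs with 20 sites or more. Among sites passed in both tissues, the 37 sites of GUA had a median of 53.6% in panicle and 38.6% in straw with a median difference of 6.24 points. Without both repeated contexts 18 GUA sites were left, with a median difference of 1.05 points. The 76 UUC sites, to which the T loop kind belongs, had a median difference of 2.47 points, although the medians themselves, 54.1% and 56.5%, lay the other way. Sites of CUC (90 sites) and GUC (82 sites) had median differences of -1.48 and -1.74 points, with a median of 24.3% in panicle and 24.9% in straw for CUC. The GUG motif was the most frequent with 121 sites, and its medians were 13.1% in both tissues.

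Many sites of the T loop kind had high fractions in both tissues. A ggtTcga site on chromosome 2 (14280250, minus strand, in no gene) had 100% in panicle and 94.2% in straw, and a gatTcga site on chromosome 4 (9183160, plus strand, in no gene) had 93.2% and 96.4%. Over the 33 ggtTcga sites passed in either tissue the medians were 89.9% and 85.9%. The related run ggtTcaa went the other way, with medians of 67.9% in panicle and 81.9% in straw over 22 sites, and straw was higher in 18 of them. In the mitochondrial gene ccmFn, higher in panicle as described above, a site in the context aatTcga (322620, minus strand) had 92.3% in panicle and 85.0% in straw, and it passed in panicle only.

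Whether a site passed in a tissue went with the level of its host. The host is the gene that spans a site on its strand, taken only where there was no other. Among sites passed in panicle only that had a host, 409 of 748 lay in genes called higher in panicle (54.7%) and 82 in genes called lower (11.0%). Among sites passed in straw only the shares were turned, with 122 of 956 in genes higher in panicle (12.8%) and 522 in genes lower (54.6%). Of all 7945 sites with both values and a tested host, 26.6% lay in genes higher and 32.6% in genes lower, and of the sites passed in both tissues 27.7% and 29.4%. The depth at a site is unknown, and its part in passing was not tested. Sites passed in only 1 of both tissues were also narrower across the series. Of the 869 panicle sites, 371 passed in none of the 9 other tissues with a flag (42.7%), and of the 1022 straw sites 357 (34.9%), whereas this held for 30 of the 684 sites passed in both (4.39%). By raw count, straw sites were next most often passed in radicle in the dark (273), flag leaf at 10 days after anthesis (246) and at heading (236). Panicle sites were so in seedling at 2 weeks (195) and embryo (176). The tissues differ in how many sites passed in them at all. Shares of those totals were not computed, so the counts do not rank the tissues by likeness.

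At sites passed in both tissues, the Ψ fraction tended to be lower in the tissue with more of the host transcript. The 172 sites in genes higher in panicle had a median difference of -1.24 points, and 115 of them were lower in panicle. The 182 sites in genes lower in panicle had a median difference of 0.80 points, and 107 of them were higher in panicle. Differences of 10 points or more were 4 up and 23 down in the former, and 12 up and 2 down in the latter. In the 266 sites of genes not called the median was -0.50 points. With hosts at 50 TPM or more in all 4 libraries the medians were -0.78 and 0.62 points. Without the filter, the medians for genes higher and lower in panicle kept this order over sites above 0 in both tissues, at -0.46 and -0.0779 points. Over all sites with both values the order was the opposite, at 0 and -0.20 points. There, differences of 10 points or more were 374 up and 262 down in genes higher in panicle. In genes lower in panicle they were 195 up and 320 down. The part of the filter in this pattern was not tested. By size of the host's change, the outermost groups held only 6 and 9 sites, and the 4 groups between them had medians of 0.29, 0.49, -0.82 and -1.99 points, from lower to higher in panicle.

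**Figure D5:**
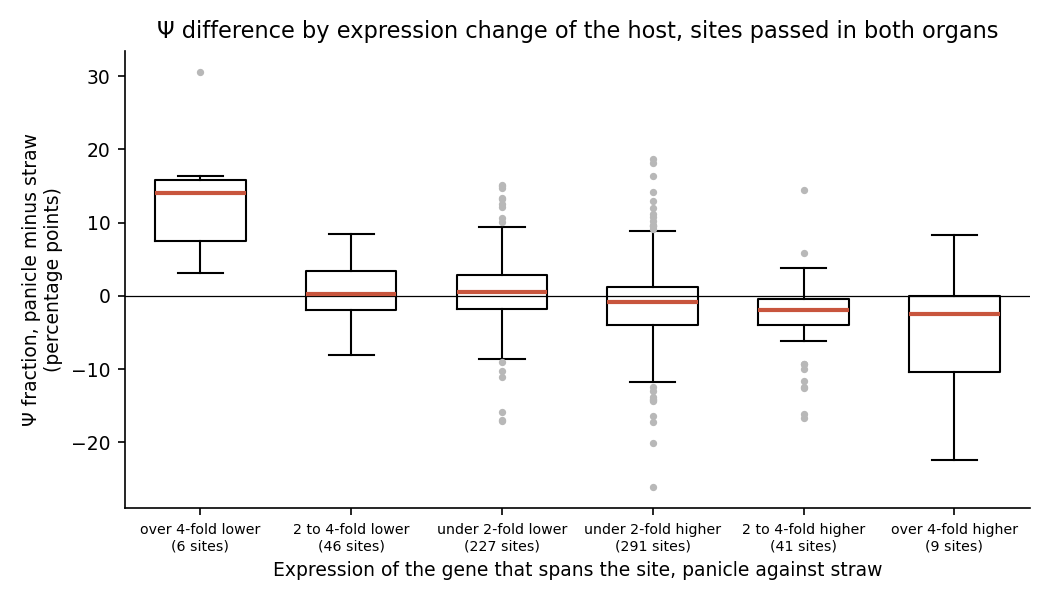
Difference in Ψ fraction (panicle minus straw, percentage points) at the 620 sites passed in both tissues with a tested host gene, by the change of the host's expression on the log2(TPM + 1) scale. Boxes span the quartiles with the median in red, whiskers reach to 1.5 times that span and points lie beyond. The median goes from 14.0 points in the 6 sites whose hosts were over 4-fold lower in panicle to -2.42 points in the 9 whose hosts were over 4-fold higher.

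Several of the sites with the largest differences lay in hosts that changed the other way. At chromosome 11 position 27835140 (plus strand, in Os11g0687100, 27828727 to 27835243) the fraction was 78.5% in panicle and 47.8% in straw. Its host stood at 7.15 and 8.42 TPM in panicle and at 136 and 142 TPM in straw. In the 10 other tissues this site ranged from 0% to 83.1% with a median of 34.6%, and endosperm was the highest. At chromosome 1 position 30025660 (minus strand, in Os01g0720400) the fraction was 30.9% in panicle and 53.3% in straw, with a host at 54.2 and 44.5 TPM in panicle and 9.19 and 14.0 TPM in straw. The straw value lay above the range of the 10 other tissues, from 18.7% to 50.3%. At chromosome 2 position 32560416 (plus strand, in Os02g0771600) it was 41.1% and 61.4%, with a host at 265 and 253 TPM against 45.1 and 47.7 TPM. In the 10 other tissues this site ranged from 0% to 60.9% with a median of 29.2%, and flag leaf at heading was the highest. It passed in 0 of the other tissues with a flag. The largest fall among sites passed in both tissues, in a host that was not called, was in an RNA gene on chromosome 4 (19217416, plus strand, context aaaTggt) with 51.4% in panicle and 77.5% in straw, at mean host levels of 34.8 TPM in panicle and 29.6 TPM in straw.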

How the data were processed

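Poly(A)-selected RNA was read with and without bisulfite. On rice assembly IRGSP-1.0 from Ensembl, the authors pooled the reads of a tissue's replicates at each site, took the gapped share and calibrated it to the deposited Ψ fraction (0 to 1, printed here as percent). The deposited flag is read as their filter based on p-values, and plumule in the dark has none. The deposited TPM values came from 2 libraries a tissue, matching the number of input samples, and the counting behind them is not given in the sources used here. limma 3.58.1 in R 4.3.3 was run on log2(TPM + 1) with a variance trend, on genes reaching 1 TPM in 2 or more of the 24 libraries (12 groups), with Benjamini-Hochberg adjustment over 29987 genes and a threshold of 0.05. Changes on this scale understate those of weakly expressed genes. The limma step was tested on simulated expression data. Sites were handled with Python 3.11.15 and pandas 2.3.3, without such a test.

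The comparison, lists and rules were chosen with earlier results of these data known. Named genes were, among called genes with libraries that did not overlap and a mean of at least 32 TPM, the 10 largest rises and the 10 largest falls, of which 2 each are named. Named sites were the 5 largest differences each way and the 5 highest means among sites passed in both tissues, and the 5 largest differences among sites passed in 1. Of 37849 Os identifiers 1 matched the supplied symbol table, so gene lists of flower, pollen, wall and other functions, marker checks of the tissues, and exons or untranslated regions were not analysed here. Alternatives changed the pseudocount, filter, scaling, libraries, block and set of sites.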

Additional observations from a re-analysis of the deposited data

How the results depend on the processing

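The counts of 9301 genes higher and 5608 lower in panicle stayed within 1.5 times under other pseudocounts, filters, variance models, scalings and sets of libraries, and fell to 4206 and 2951 when at least a 2-fold change was also asked. The majority turned with scaling, with higher genes at 49.4% of calls after quantile normalization and 47.2% with median of ratios scaling. Without 1 of the panicle or straw libraries, the fits gave 7287 to 7846 higher and 4692 to 4781 lower genes, and higher genes at 60.4% to 62.3% of calls. With the replicate number as a block, 8977 were higher and 5573 lower within the 4 libraries, and 9263 and 5590 within all 24. Deviations of like-numbered libraries correlated at -0.02 across 29987 genes. The libraries of a tissue differed by little more than counting noise, so this value cannot tell whether like-numbered libraries were paired. Single genes were refitted for 36 nuclear and organelle genes, all called in the main fit, the nuclear ones being the largest rises and falls. This choice favours stable calls. The nad genes were left out, although nad2, nad4 and nad7 lost the call after quantile normalization, and nad2 with median of ratios scaling too. Of the 540 refits of these 36 genes, 537 kept direction and call and 0 reversed. The 3 that lost the call were psbD at a pseudocount of 0.1 (adjusted p = 0.136) and rpl22 without panicle replicate 1 or straw replicate 1 (adjusted p = 0.0753 and 0.0721, limma).

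The share of sites higher by 20 points or more, 5.77% in panicle and 4.97% in straw over all sites with both values, fell to 2.05% and 0.585% among sites passed in both tissues, 2.85% and 3.02% among sites above 0 in both, 2.84% and 2.98% without values at 0 or 100%, and 2.51% and 2.43% in hosts at 10 TPM or more in all 4 libraries. Sets chosen after seeing the data were sites in Os genes, sites without the repeated contexts, and other host calls and site sets for the relation to host level. In that relation the median of 0.80 points in genes lower in panicle turned to -0.20 over all sites with both values and -0.0779 over sites above 0 in both, and the cause was not tested. Depth limits the fractions to an unknown degree, as no read numbers per site were used here.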

Other observations

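Sites in no gene on their strand had higher fractions than sites in genes with an Os identifier also without the repeated contexts, and sites in RNA genes were as high. Among sites passed in both tissues, 63 lay in no gene, with a median of 77.6% in panicle and 58.5% in straw, and without both repeated contexts the 45 that were left had 77.7% and 63.7%, with 12 higher in panicle by 10 points or more and 1 in straw. The 602 sites in Os genes had medians of 18.6% and 19.6%, and the 17 in RNA genes 77.0% and 77.5%.

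A run of 5 genes of 575 bases each on chromosome 6 (18524688 to 18727299) stood at 7.46 to 15.9 TPM over the panicle libraries and at most 0.137 TPM in straw, while a member reached 4243 TPM in plumule in the dark. On the plastid genome, a ggtTcga site at 95049 (plus strand) had 98.99% in panicle and 68.3% in straw, and a cgcTctt site of the same RNA gene at 94213 had 27.8% and 60.0%. Each passed only in the tissue where it was higher, and the host stood at 6.69 and 21.1 TPM in the panicle libraries and 17.8 and 9.09 TPM in straw. Another plastid ggtTcga site, at 120069 (minus strand), had 65.0% in panicle and 0% in straw and passed in neither. Its RNA gene had nearly the same levels, 6.69 and 20.3 TPM in panicle and 17.2 and 9.09 TPM in straw. Whether both genes are copies that share reads was not tested.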
